A study of Danio rerio with 8 samples.

Results

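The heat shock protein and DnaJ genes of the zebrafish liver were examined after feeding with oligo-fucoidan (OF), a sulfated polysaccharide extract of brown seaweed. A gene was a member if its symbol in the authors' annotation began with hsp, hsc70 or dnaj. The proteoglycan gene *hspg2* was left out, because it shares only the first letters of the name. This gave 82 members of the 23479 gene symbols tested, 50 of them DnaJ genes and 32 heat shock genes. Where a gene had more than 1 transcript cluster, the array's unit of measurement, the brightest over the 8 arrays was used. The study asked how OF alters the liver transcriptome of healthy fish. It used AB strain wild-type adults that were 5 months old at the start and are labelled 6 months. The OF groups received 300 mg/kg by oral gavage 3 times a week for 1 month, and the control groups had no treatment (mock). The treatment was run in 2 batches, and from each batch the arrays cover 2 OF fish and 2 control fish, with total liver RNA of each hybridized to a ZebGene 1.1 ST array. Replicates are separate fish. Values are the authors' normalized log2 signals, and a difference of 1 is a 2-fold difference. Signals of different clusters depend on their probes and were not compared with each other.

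Heat shock proteins are molecular chaperones that keep other proteins folded. HSP70 proteins grip unfolded segments in cycles of ATP use, in which DnaJ proteins deliver the client and start ATP hydrolysis, and HSP110 proteins release the nucleotide. HSP90 acts late on signaling proteins, the HSP60 and HSP10 chaperonin folds proteins inside mitochondria, and small heat shock proteins hold aggregating proteins. The endoplasmic reticulum (ER) has its own set, built around the HSP70 protein BiP (*hspa5*), which the unfolded protein response induces when secretory load is high. Hepatocytes secrete most plasma proteins and, in egg-laying females, the yolk precursor vitellogenin. Members were sorted by the compartment of their human or mouse counterparts, which gave 11 genes for the ER lumen, 6 for the ER membrane, 12 for mitochondria, 45 for the cytosol and nucleus, and 8 for vesicles and other sites.

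The arrays carried the liver label in their data, with a mean log2 signal of the 13 measured hepatocyte markers between 11.3 and 12.6 on every array. Replicates of a group correlated at 0.929 to 0.965 across clusters. Median log2 signals lay at 2.54 to 2.63 on the batch 2 arrays and 2.11 to 2.13 on the batch 1 arrays. Of the members, 17 read above 5 on all arrays and 28 read above 5 on none. In bulk RNA of this kind, fewer cells of a type and less RNA per cell cannot be told apart.

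The OF change of the chaperones was called mainly in batch 2. In that batch, 20 of 82 members (24.4%) were called lower in OF fish, where a call means a fold above 2 with an unadjusted limma p under 0.05, as in the methods, against 4.84% of gene symbols. One member, *dnajc22*, was called higher, against 3.26% of gene symbols. In batch 1, 4 members were called lower and 1 higher, against 4.59% and 4.94% of gene symbols. The median change of the members was -0.28 in batch 2 and 0.13 in batch 1, while gene symbols had medians of 0.03 in batch 2 and -0.01 in batch 1. In 39 members the change was above 0 in batch 1 and below 0 in batch 2, a pattern found in 27.6% of gene symbols. The batch 1 signs rest on single arrays, since 49 members were above 0 with all arrays, 36 without the second control fish and 39 without the first OF fish, where the median was -0.04 and -0.02.

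No member passed a Benjamini-Hochberg adjusted p under 0.05 for OF. The lowest limma values were 0.187 in batch 2, 0.169 in batch 1 and 0.955 over both batches. Of gene symbols, 0.00852% passed in batch 2 and 0.0% in batch 1 and over both batches. An unadjusted p under 0.05 was found in 25 members in batch 2, 10 in batch 1 and 4 over both batches, against 13.4%, 14.3% and 5.37% of gene symbols. Each p given for a gene is the adjusted one, so the calls describe these arrays and did not hold after adjustment. For the difference between the batches in the OF change (batch 2 minus batch 1), 19 members were called lower and 3 higher, against 9.11% and 8.35% of gene symbols, and the lowest adjusted p was 0.124. After adjustment 0 members passed, against 0.00426% of gene symbols.

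**Figure D1:**
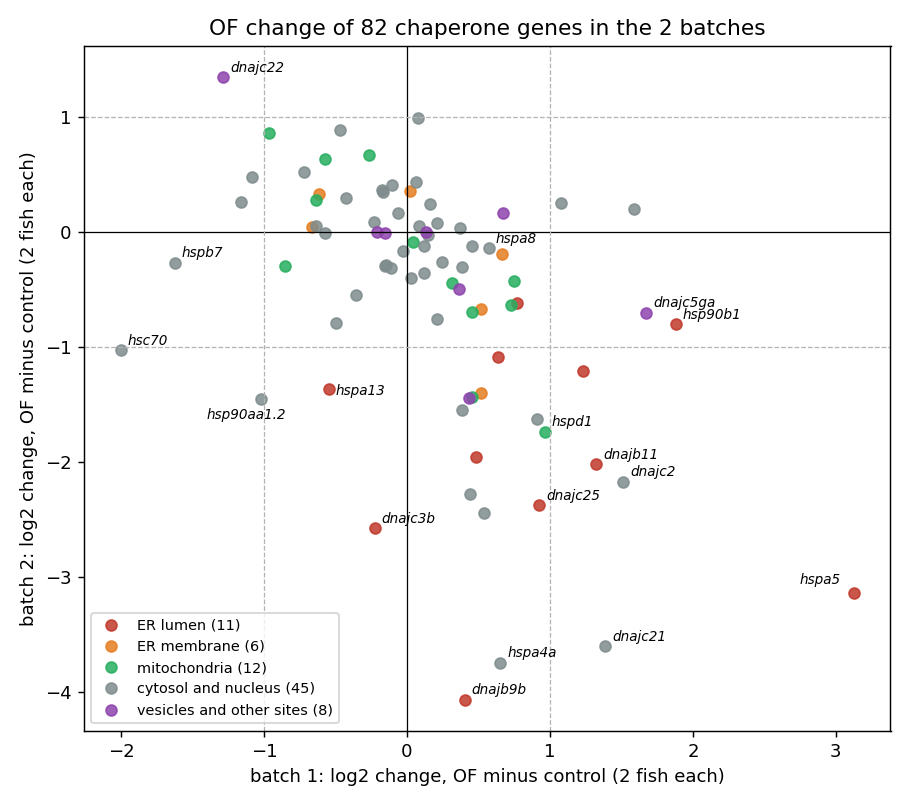
Log2 change of OF minus control in batch 1 (horizontal) and batch 2 (vertical) for the 82 members, colored by compartment, with dashed lines at a 2-fold change. All 11 ER lumen genes lie below 0 in batch 2, between -4.07 and -0.62, and 9 of them lie above 0 in batch 1, or 5 without the second control fish of that batch.

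The clearest group was the ER lumen. In batch 2, 9 of the 11 members were called lower, against 4.84% of gene symbols. All 11 had both OF signals below the 2 control signals, an order seen in 20.4% of gene symbols. Of the 71 members outside the ER lumen, 25 had that order and 11 were called lower. The median change was -1.96 in the ER lumen and -0.13 outside it. In batch 1 no ER lumen member was called in either direction, 10 of 11 overlapped between the groups, and the median change was 0.77. The change was above 0 in 9 of the 11, against 48.5% of gene symbols, and below 0 in 11 of 11 in batch 2, against 47.3%. The batch 1 direction was lost without the second control fish, where 5 of the 11 were above 0 and the median was -0.02. Without the first OF fish the batch 1 median was 0.16. In batch 2 all 11 remained below 0 without any 1 array, with medians between -1.95 and -1.73. These signs were fixed in advance, since both OF signals of each gene lay below its control signals.

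*hspa5*, the ER HSP70 that binds nascent secretory proteins, read 9.18 and 7.76 in OF fish of batch 2 and 11.66 and 11.57 in control fish. The groups did not overlap, and the log2 change was -3.15 ± 0.51 (SE, n = 2 each; limma adjusted p = 0.232). In batch 1 it read 10.32 and 8.05 in OF fish and 8.99 and 3.13 in control fish. These groups overlapped, with the second control fish far below the other arrays, and the change of 3.13 ± 2.24 was not called (adjusted p = 0.716). The difference between the batches was -6.27 ± 2.57 (adjusted p = 0.346).

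The DnaJ partners of BiP followed the same order in batch 2. *dnajb9b*, whose mammalian counterpart restrains the stress sensor IRE1 through BiP, read 4.59 and 4.96 in OF fish of batch 2 and 8.65 and 9.03 in control fish. Its change of -4.07 ± 0.26 was the largest decrease of any member in that batch (adjusted p = 0.187). Its paralog *dnajb9a* read 3.62 and 3.69 in OF fish and 5.67 and 5.56 in control fish, a change of -1.96 ± 0.19 (adjusted p = 0.217). Both genes had overlapping groups in batch 1, where the change of *dnajb9b* was 0.40 ± 1.66.

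*dnajb11*, which loads clients onto BiP, read 9.26 and 7.95 in OF fish of batch 2 and 10.33 and 10.91 in control fish, a change of -2.02 ± 0.52 (adjusted p = 0.342). *dnajc3b*, a paralog of the BiP co-chaperone that in mammals also inhibits the kinase PERK, read 4.61 and 4.76 in OF fish and 7.06 and 7.47 in control fish, a change of -2.58 ± 0.24 (adjusted p = 0.217). The other copy, *dnajc3a*, read 8.76 and 8.26 in OF fish and 9.29 and 10.15 in control fish, a change of -1.21 ± 0.39 (adjusted p = 0.439). The change was thus called in both copies of each of these duplicated genes, and the difference between copies was not tested. *dnajc25* changed by -2.38 ± 0.31 (adjusted p = 0.217), *hspa13*, an HSP70-like microsomal ATPase, by -1.37 ± 0.44 (adjusted p = 0.443), and *dnajc1*, a membrane-anchored partner whose J domain faces the lumen, by -1.09 ± 0.20 (adjusted p = 0.255).

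The remaining ER lumen members had smaller changes. *hsp90b1*, the ER HSP90, read 11.07 and 10.05 in OF fish of batch 2 and 11.20 and 11.53 in control fish. Its change of -0.81 ± 0.41 was not called (adjusted p = 0.657). Its batch 1 arrays read 10.74 and 8.70 in OF fish and 8.61 and 7.07 in control fish (1.88 ± 0.92, adjusted p = 0.593). No other ER lumen member had the OF arrays above the control arrays in batch 1, an order found in 21.4% of gene symbols. *dnajc10*, a reductase of misfolded proteins, had a change of -0.62 ± 0.20 in batch 2, which missed the 2-fold threshold. Without the second control fish of batch 2, the calls of *dnajb11*, *dnajc1*, *dnajc3a* and *hspa13* were lost. The call of *dnajc3a* was also lost without the second OF fish, and that of *hspa13* without the first OF fish or the first control fish.

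**Figure D2:**
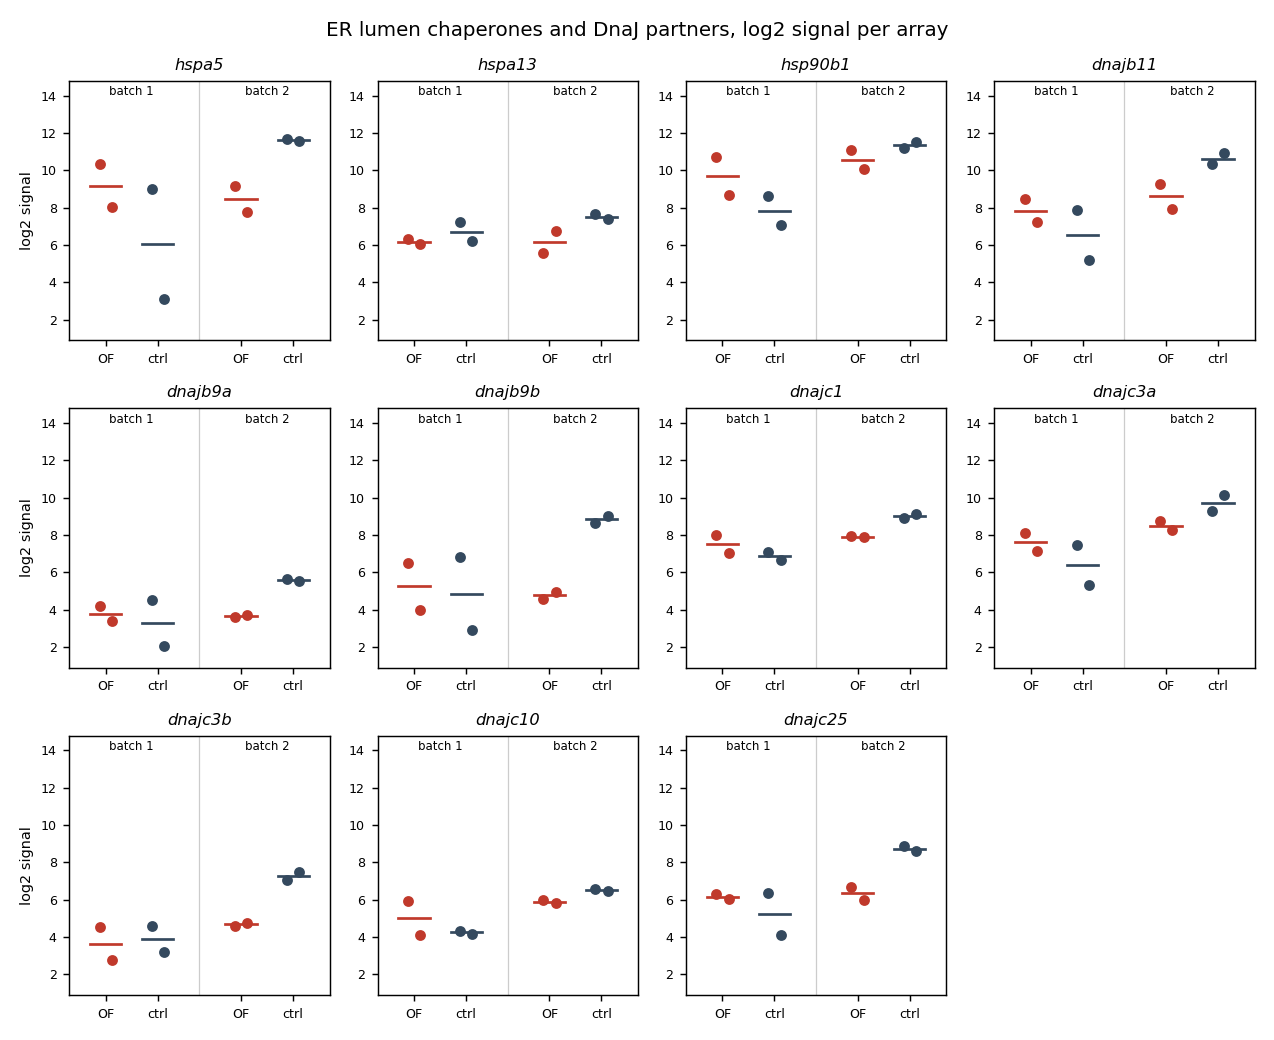
Log2 signal of the 11 ER lumen members on each array (points; OF red, control dark blue) with the mean of each pair of fish (bars), batch 1 on the left and batch 2 on the right of each panel. In batch 2 the OF points lie below the control points in all 11 panels, and in batch 1 the second control fish has the lowest *hspa5* value, 3.13.

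Across all 8 arrays, the highest signal of each of the 11 ER lumen members was on a batch 2 control array. Of all 82 members, these 11 included, 46 had it there. In part this follows from the batch 2 order of the 11 given above and from the batch difference. The change from batch 1 to batch 2 was above 0 in 82.2% of gene symbols. The lowest signal was on the second control array of batch 1 for 8 of the 11, against 31 of all 82 members. For the highest and the lowest array no share of gene symbols was counted. These counts are therefore not read as particular to the chaperones. The span from the lowest to the highest array had a median of 4.71 for the ER lumen and 2.29 for all members, and was widest for *hspa5*, at 8.52.

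Other ER folding genes outside the hsp and dnaj names were called in the same direction. Of 31 measured genes on a list of ER chaperones and the unfolded protein response, 14 were called lower and 0 higher in batch 2, and 29 had a change below 0 (median -1.12), against 4.84% of gene symbols lower, 3.26% higher and 47.3% below 0. *hyou1*, an ER relative of HSP110, read 7.90 and 6.90 in OF fish of batch 2 and 10.33 and 10.76 in control fish (-3.14, adjusted p = 0.217). *manf*, a secreted factor of the ER stress response, read 8.54 and 6.91 in OF fish and 10.73 and 10.80 in control fish (-3.04, adjusted p = 0.261). In batch 1, 25 of the 31 had a change above 0 and 1 was called higher, against 48.5% and 4.94% of gene symbols. The batch 1 median of the list was 0.71, and it was 0.28 without the second control fish, with 19 above 0, and 0.22 without the first OF fish, with 22 above 0. That gene was *xbp1*, the transcription factor activated by IRE1 splicing, which read 8.81 and 9.19 in OF fish of batch 1 and 7.48 and 6.18 in control fish (2.17, adjusted p = 0.311). It was called lower in batch 2, with 8.53 and 7.33 in OF fish and 9.68 and 9.05 in control fish (-1.44, adjusted p = 0.471). Leaving out 1 array left 2 to 3 genes of the list above 0 in batch 2, against 50.4% to 54.5% of gene symbols. The batch 2 medians were then between -1.48 and -0.81, the latter without the second control fish. In batch 1 it left 19 to 25 above 0, against 46.9% to 50.2% of gene symbols, with medians between 0.22 and 1.22.

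Markers of other tissues and of egg yolk production also differed between arrays. The estrogen-responsive liver list (6 genes measured) averaged 10.79 and 2.74 in OF fish of batch 2 and 10.87 and 10.81 in control fish. *vtg2*, a vitellogenin gene, read 13.52 and 1.27 in the same OF fish and 13.41 and 13.55 in the control fish. The ER lumen median was 6.70 and 6.74 in these OF fish and 8.86 and 9.03 in the control fish. It was the value of *dnajc25* in the first OF fish and of *hspa13* in the second. The median therefore does not show how single genes differed between these fish. Single genes differed between these OF fish in both directions. *hspa5* read 9.18 in the fish with high *vtg2* and 7.76 in the fish with low *vtg2*. *dnajb11* read 9.26 and 7.95, and *hsp90b1* 11.07 and 10.05. *dnajc25* read 6.70 and 6.01, *dnajc3a* 8.76 and 8.26, *dnajc10* 5.98 and 5.82, and *dnajc1* 7.95 and 7.88. The order was reversed for *hspa13*, at 5.58 and 6.74. It was reversed by less for *dnajb9b* (4.59 and 4.96), *dnajc3b* (4.61 and 4.76) and *dnajb9a* (3.62 and 3.69).

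In batch 1 the estrogen-responsive list averaged 8.58 and 10.13 in OF fish and 2.86 and 2.69 in control fish. There 5 of its 6 genes were called higher, against 4.94% of gene symbols. The ER lumen median there was 6.51 and 6.03 in OF fish and 7.08 and 4.19 in control fish, with overlapping groups. The ovary list (11 genes measured) averaged 7.13 and 5.01 in OF fish of batch 1 and 1.86 and 2.04 in control fish. Of the 11, 10 were called higher, against the same 4.94%. In batch 2 it averaged 3.65 and 1.88 in OF fish and 2.81 and 3.75 in control fish, and 0 were called.

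The exocrine pancreas list (12 genes measured) averaged 6.71 and 6.24 in OF fish of batch 2 and 6.83 and 6.68 in control fish, and 0 were called in either batch. The batch 1 means were 2.35 and 5.52 in OF fish and 5.18 and 6.97 in control fish. The control fish with the highest pancreas mean of batch 1 had the lowest *hspa5* signal of all arrays. Hepatocyte markers had changes above 0 in 13 of 13 genes in batch 2, against 52.7% of gene symbols. In batch 1 they were below 0 in 13 of 13, against 51.5%. Erythrocyte markers had the same signs in 6 of 6 genes in each batch. The part of these markers in the chaperone changes was not tested.

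**Figure D3:**
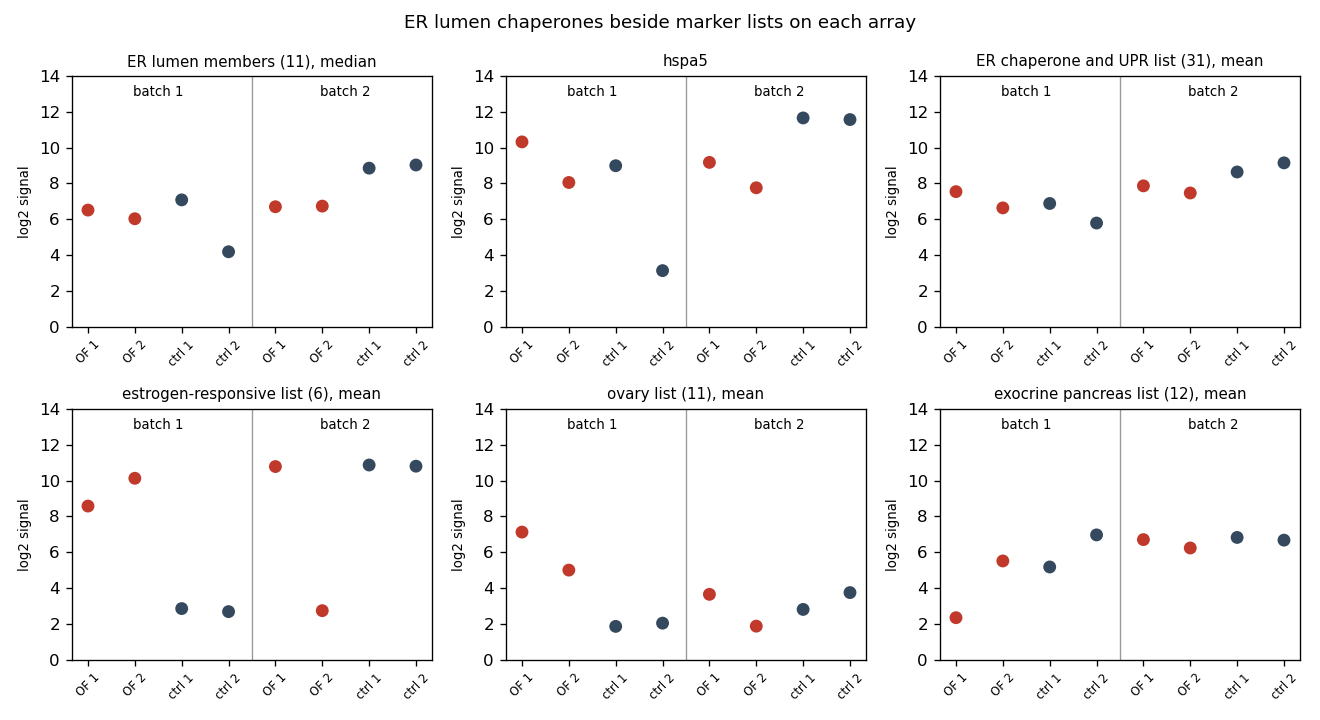
Log2 signal on each array (OF red, control dark blue) of the ER lumen members, *hspa5*, the ER chaperone list and 3 marker lists. In batch 2 the ER lumen median is 6.70 and 6.74 in OF fish, values of different genes, and 8.86 and 9.03 in control fish. *hspa5* is 9.18 and 7.76 in these OF fish. The estrogen-responsive mean is 10.79 and 2.74 in OF fish and 10.87 and 10.81 in control fish.

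In the cytosol and nucleus, 7 of 45 members were called lower in batch 2 and 0 higher, against 4.84% and 3.26% of gene symbols. The change was below 0 in 26 of the 45, near the 47.3% of gene symbols. The constitutive chaperones *hspa8* and *hsp90ab1* were not called, while the heat shock cognate *hsc70*, given below, was called lower in batch 1. *hspa8*, the constitutive HSP70, read 12.33 and 12.16 in OF fish of batch 2 and 12.32 and 12.46 in control fish, a change of -0.14 ± 0.20. *hsp90ab1*, the constitutive HSP90, read 12.11 and 11.92 in OF fish and 11.99 and 12.29 in control fish, a change of -0.13 ± 0.22. The groups overlapped for both genes. In batch 1 the OF arrays of *hspa8* read 11.76 and 11.73 and the control arrays 11.06 and 11.29, a change of 0.57 ± 0.18 that stayed under 2-fold (adjusted p = 0.421).

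Of the 4 HSP110 members, *hspa4a* was called lower in batch 2. It read 4.12 and 4.79 in OF fish and 8.05 and 8.36 in control fish, a change of -3.75 ± 0.31 (adjusted p = 0.198). Its paralog *hspa4b* read 8.34 and 7.99 in OF fish and 8.22 and 8.72 in control fish, a change of -0.30 ± 0.28 with overlapping groups. The difference between these copies was not tested. *hspbp1*, which in mammals also helps HSP70 exchange its nucleotide, read 4.37 and 4.40 in OF fish and 6.36 and 5.67 in control fish, a change of -1.63 ± 0.30 (adjusted p = 0.251).

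The next 3 cytosolic calls of batch 2 were set side by side after their values were seen. In mammals the products of *dnajc2* and *hspa14* form a complex that binds nascent chains at the ribosome. *dnajc2* read 5.79 and 5.64 in OF fish and 7.91 and 7.86 in control fish, a change of -2.17 ± 0.20 (adjusted p = 0.217). *hspa14* read 6.40 and 5.92 in OF fish and 8.03 and 7.38 in control fish, a change of -1.55 ± 0.33 (adjusted p = 0.285). *dnajc21*, whose yeast counterpart acts in maturation of the large ribosomal subunit, read 4.12 and 2.86 in OF fish and 7.10 and 7.09 in control fish, a change of -3.60 ± 0.46 (adjusted p = 0.217). In batch 1 all OF arrays of *hspa14* and *dnajc21* read above the control arrays, and those of *dnajc2* overlapped.

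Of the DNAJA class, the general partners of cytosolic HSP70, *dnaja* changed by -2.45 ± 0.40 in batch 2 (adjusted p = 0.232) and *dnaja1* by -2.28 ± 0.36 (adjusted p = 0.227). *dnaja1* read 5.10 and 5.37 in OF fish and 7.08 and 7.95 in control fish, without overlap. *dnaja2* and *dnaja2l* were not called, with changes of 0.41 ± 0.30 and 0.89 ± 0.71.

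The stress-inducible genes were dim or variable. The cluster shared by *hsp70l* and *hsp70.1*, heat-inducible HSP70 genes, read 3.38 and 5.27 in OF fish of batch 2 and 3.47 and 3.19 in control fish. The batch 1 signals were 2.77 and 2.35 in OF fish and 3.38 and 1.58 in control fish, and neither batch was called. *hsp90aa1.2* read 3.22 and 4.54 in OF fish of batch 2 and 4.49 and 6.17 in control fish, and 3.97 and 2.22 in OF fish of batch 1 and 4.35 and 3.89 in control fish. Its change over both batches was -1.24 ± 0.54 (adjusted p = 0.955). The cluster shared by *hsp90aa1.1* and *hsp90aa1.2* stayed under 3 on all arrays. Of the 6 measured heat shock factors and their binding proteins, 0 were called in either batch. *hsf1*, the main heat shock transcription factor, had changes of -0.22 (batch 2) and 0.10 (batch 1).

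Of the 9 small heat shock proteins, 6 stayed under 3 on every array. *hspb1*, the most widely expressed of them in mammals, read 6.37 and 7.16 in OF fish of batch 2 and 6.34 and 6.60 in control fish, a change of 0.29 ± 0.34. *hspb7*, known from heart and skeletal muscle, was called lower in batch 1. It read 2.39 and 2.58 there in OF fish and 4.69 and 3.53 in control fish, a change of -1.63 ± 0.45 (adjusted p = 0.367). The call was lost when the first or the second OF fish of batch 1 was left out. The 15 measured muscle markers averaged 1.68 to 1.89 on every array.

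In mitochondria, 2 of 12 members were called lower in batch 2, against 4.84% of gene symbols. *hspa9*, the matrix HSP70 that pulls in imported proteins, read 8.69 and 8.82 in OF fish and 10.10 and 10.27 in control fish, a change of -1.44 ± 0.20 (adjusted p = 0.227). *hspd1*, the HSP60 chaperonin, read 7.16 and 7.44 in OF fish and 9.02 and 9.06 in control fish, a change of -1.74 ± 0.21 (adjusted p = 0.217). Its HSP10 lid *hspe1* read 4.64 and 4.44 in OF fish and 4.79 and 5.19 in control fish, without overlap but with a change of -0.45 ± 0.24 that was not called (adjusted p = 0.68). In batch 1 the *hspd1* groups overlapped, with 6.68 and 6.27 in OF fish and 6.48 and 4.55 in control fish.

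On a list of 12 measured mitochondrial folding and protease genes, 3 were called lower in batch 2 and 5 in batch 1, against 4.84% and 4.59% of gene symbols. *timm23a*, a channel of the inner membrane import machinery, read 7.59 and 8.02 in OF fish of batch 2 and 8.50 and 8.74 in control fish. Its batch 1 signals were 6.62 and 6.44 in OF fish and 7.55 and 7.67 in control fish. The groups did not overlap in either batch, and the change over both was -0.95, under 2-fold (adjusted p = 0.955). Of 26 measured cytosolic co-chaperones, 6 were called lower and 0 higher in batch 2, against 4.84% and 3.26% of gene symbols. In batch 1, 2 were called in each direction, against 4.59% lower and 4.94% higher. Of 13 genes of the cytosolic chaperonin and prefoldin, 1 was called lower in batch 2 and 1 higher in batch 1, *pfdn2* each time. These counts were near the 4.84% and 4.94% of gene symbols.

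**Figure D4:**
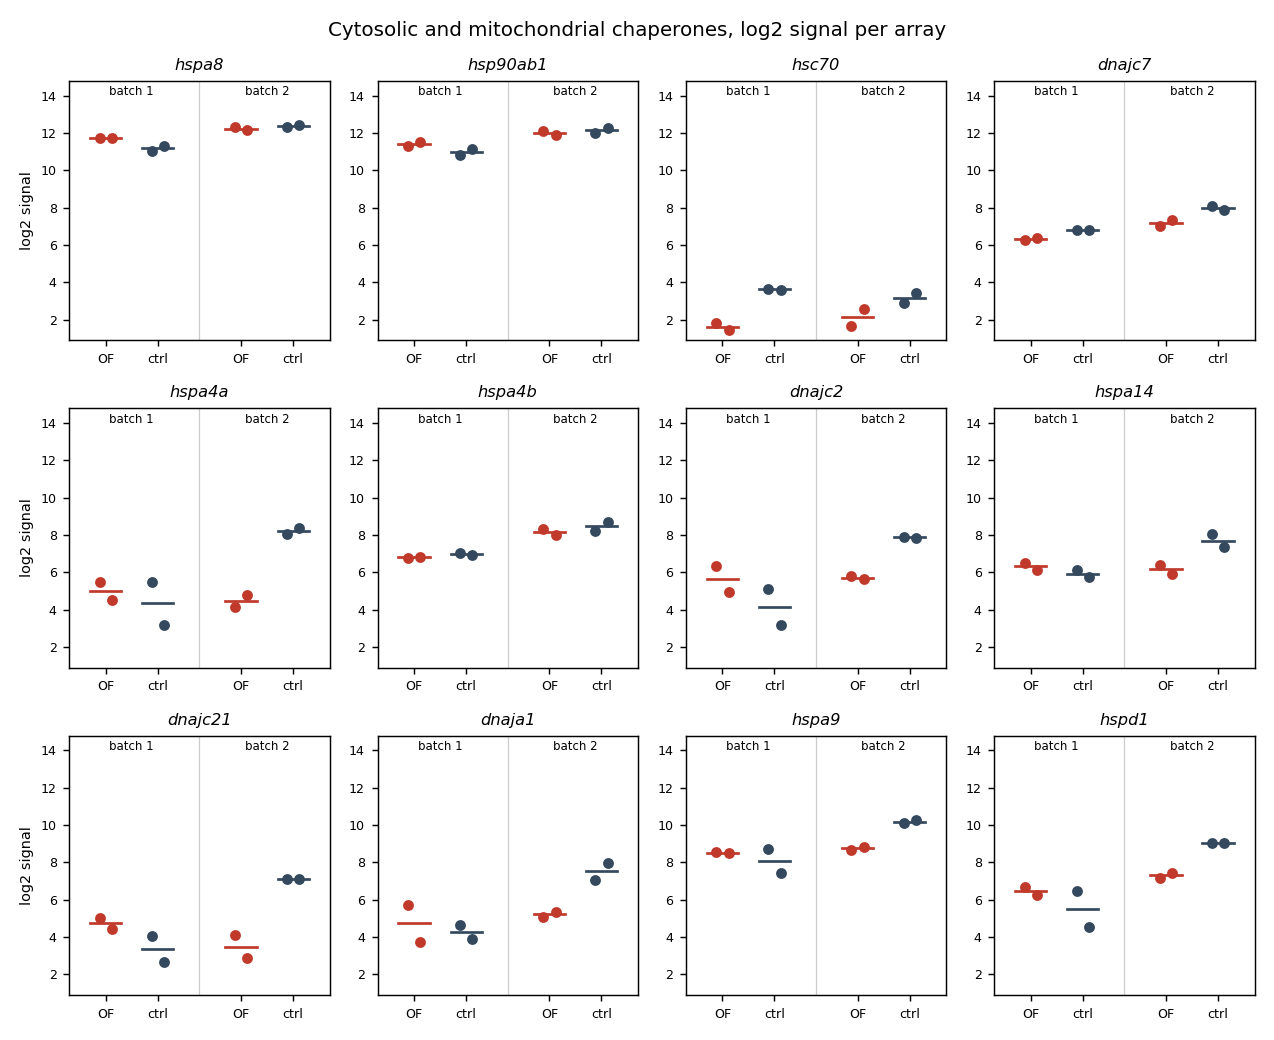
Log2 signal of 12 cytosolic and mitochondrial members on each array (points; OF red, control dark blue) with the mean of each pair of fish (bars). In batch 2 the change was -3.75 for *hspa4a* and -0.30 for its paralog *hspa4b*, while *hsc70* and *dnajc7* lie lower in OF fish in both batches.

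Among the other compartments, *dnajb12a*, an ER membrane protein that in mammals aids degradation of misfolded membrane proteins, read 7.25 and 6.87 in OF fish of batch 2 and 8.25 and 8.67 in control fish (-1.40 ± 0.27, adjusted p = 0.261). *dnajc5ab*, a cysteine string protein of secretory vesicles, read 5.80 and 5.75 in OF fish and 7.32 and 7.12 in control fish (-1.45 ± 0.20, adjusted p = 0.227). These were the only called members of the 6 and 8 genes of their compartments that were lower in that batch.

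Over both batches, with batch as a term, 1 member was called lower and 0 higher, against 0.554% and 0.784% of gene symbols. It was *hsc70*, a heat shock cognate HSP70. It read 1.67 and 2.57 in OF fish of batch 2 and 2.89 and 3.41 in control fish. In batch 1 it read 1.82 and 1.44 in OF fish and 3.67 and 3.59 in control fish. The groups did not overlap in either batch, and the change was -1.52 ± 0.30 (adjusted p = 0.955). All values were under 5. Within batches it was called in batch 1 (-2.00 ± 0.21, adjusted p = 0.169) and missed the p threshold in batch 2 (-1.03 ± 0.40, adjusted p = 0.527). Without the second control fish of batch 1, 8 members were called lower over both batches, against 1.31% of gene symbols. Without the first OF fish of batch 1, 6 were, against 0.865%.

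*dnajc7*, which bridges HSP70 and HSP90, was also lower on all OF arrays of both batches. It read 7.03 and 7.37 in OF fish of batch 2 and 8.09 and 7.90 in control fish, and 6.25 and 6.36 in OF fish of batch 1 and 6.79 and 6.81 in control fish. The change was -0.65 ± 0.14 (adjusted p = 0.955). A second, dimmer cluster of the gene gave -1.10 in batch 2 and -0.03 in batch 1, so the clusters disagreed in batch 1. The third member with this order was *hsp70.1*, with a change of -0.45 ± 0.16 at signals under 3. Its cluster matched the RefSeq table under the symbol *hsp70.3*. The other cluster that carries the symbol, shared with *hsp70l*, changed by 0.53 ± 0.54 over both batches, with overlapping groups in each. No member was above on all OF arrays in both batches. Such an order was found in 2.61% (below) and 2.91% (above) of gene symbols. The 3 of 82 members that lay below were near that share.

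Batch 1 had 4 members called lower and 1 higher, near or below the 4.59% and 4.94% of gene symbols. These were too few to compare compartments, and none was in the ER lumen or ER membrane. *dnajc22*, whose fly counterpart acts in endocytosis, read 5.74 and 5.93 in OF fish of batch 1 and 6.88 and 7.36 in control fish (-1.29 ± 0.25, adjusted p = 0.265). In batch 2 it read 7.96 and 8.63 in OF fish and 7.13 and 6.77 in control fish (1.34 ± 0.32, adjusted p = 0.313). It was called in opposite directions, and the difference between batches was 2.62 ± 0.43 (adjusted p = 0.124). The batch 2 call was lost without the second control fish of that batch.

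*hspa12b*, an atypical HSP70 of mammalian endothelium, read 2.89 and 2.78 in OF fish of batch 1 and 3.81 and 4.02 in control fish (-1.08 ± 0.18, adjusted p = 0.24). *dnajc5ga*, a cysteine string protein, was the member called higher, with 6.14 and 5.20 in OF fish of batch 1 and 4.25 and 3.75 in control fish (1.67 ± 0.41, adjusted p = 0.33). Both calls were lost without the second control fish of batch 1. *dnajc5ga* read highest on the OF array with the highest ovary mean, 7.13. So did *dnajb1b*, a partner of cytosolic HSP70, which read 4.64 and 2.95 in OF fish of batch 1 and 2.12 and 2.29 in control fish (1.59 ± 0.63, adjusted p = 0.509). The part of ovary RNA in these values was not tested. The median batch 1 change of the members was 0.13 with all arrays. It was 0.23 without the first control fish of that batch and 0.31 without its second OF fish.

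More members were called between the batches than for OF. In batch 2 relative to batch 1, 38 of 82 members (46.3%) were called higher and 0 lower, against 26.0% and 0.345% of gene symbols. At an adjusted limma p under 0.05, 29 members passed, all of them higher, against 30.5% of gene symbols. The median shift was 1.11 for the members, 0.55 for gene symbols and 0.35 for all clusters. *dnajc8*, a nuclear protein of splicing complexes in mammals, had the largest shift, with 9.20 and 8.75 in OF fish and 9.06 and 9.60 in control fish of batch 2, and 6.85 and 6.55 in OF fish and 7.11 and 6.05 in control fish of batch 1 (2.51 ± 0.28, adjusted p = 0.00232). The count depended on scaling. With each array centred on its median, 14 members were called higher (10.5% of gene symbols), and after quantile normalization 2 were (3.83%). The median shift of the members was then 0.65 and 0.34. The difference of *dnajc8* is given on the deposited scale.

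**Figure D5:**
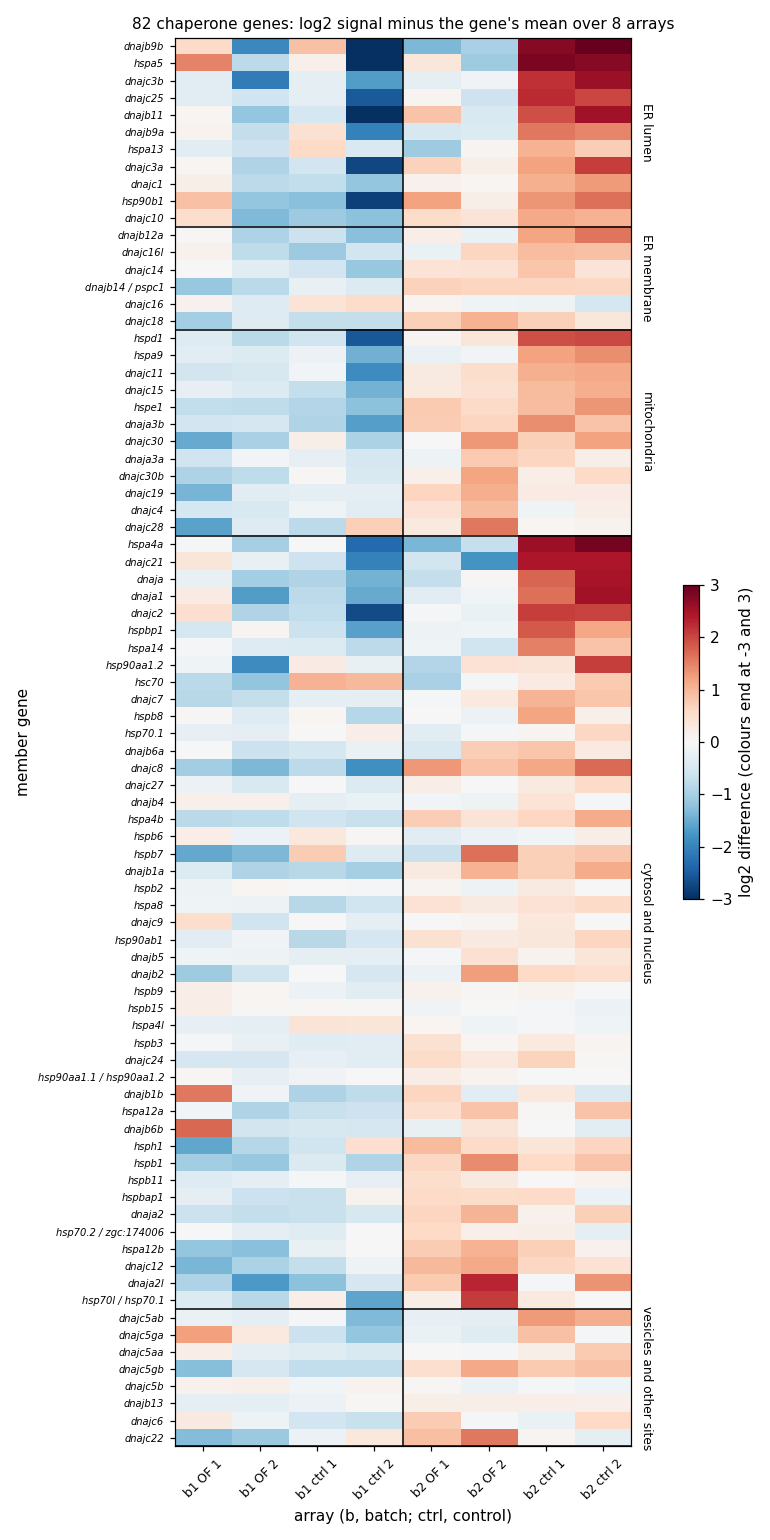
Log2 signal of each of the 82 members minus its mean over the 8 arrays, grouped by compartment and sorted within it by the batch 2 change, with the arrays of batch 1 left of the line and those of batch 2 right of it. The highest values of all 11 ER lumen genes are on the batch 2 control arrays, which hold the highest value of 46 of the 82 members. The share of gene symbols with their highest value there was not counted.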

How the data were processed

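Liver RNA of 8 fish was hybridized to 1 array each. Per the methods, array intensities were adjusted by the authors for guanine cytosine count and by signal space transformation, and summarized per cluster, in the Transcriptome Analysis Console. The authors deposited log2 signals for 75212 clusters, which are analysed here. Worksheets hold the deposited group averages as linear intensity and as log2 values, which served only to check the signals, and the authors' log2 changes and fold ratios, which were not used. No coordinates were used. The 84 control clusters and 15828 clusters in no worksheet were left out, and 59300 were tested. Of the members, 78 have 1 symbol and 4 share a cluster with another gene. Member clusters hold 11 to 62 probes. With the RefSeq gene table, 76 members matched, 8 of them under another symbol.

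Signals were fitted with limma 3.58.1 (lmFit and eBayes) in R 4.3.3, within each batch, over both batches with batch as a term, and with an interaction. P-values are 2-sided and were adjusted over all clusters. Calls used the methods' thresholds, a fold above 2 and an unadjusted p under 0.05. Gene symbols as background have 1 cluster each, the brightest. Precision is limited by the 2 arrays per group. On simulated data, the batch 2 fit called 35 of 67 clusters changed by a log2 of 1, and 62 of 67 changed by 2, at these thresholds. A change of 1 lies at the fold threshold itself, so the 35 is set in large part by that threshold and not by precision. At an adjusted p under 0.05 it called 0. Few of the 59300 simulated clusters were changed, with independent noise, and the 0 depends on that setting too. Same-numbered arrays deviated together at r = 0.113 in batch 1 and -0.0727 in batch 2, so numbers were not taken as pairs. Values were named for members with the smallest p, past the thresholds, brightest, with the largest batch difference or interaction, and for fixed chaperones. Other ER lumen and cytosolic members, and the list genes *hyou1*, *manf*, *xbp1* and *pfdn2*, were named after their values were seen. Members and lists were chosen with earlier results of these data known. Alternatives left out each array and changed the scaling, filter, cluster choice, prior, shared spread and replicate block. Python 3.11.15, pandas 2.3.3 and matplotlib 3.10.9 were used for tables and figures.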

Additional observations from a re-analysis of the deposited data

Results flagged for a closer look

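In 9 of 82 members every OF array lay on one side of the control arrays in batch 1 and on the other side in batch 2, and the difference between the batches in the OF change (batch 2 minus batch 1) passed a fold of 2 and an unadjusted limma p under 0.05. This was found in 9.53% of gene symbols, so the share of members was near the background. None passed after adjustment, where the lowest value was 0.124. The difference was -4.99 for *dnajc21*, -2.54 for *hspbp1*, -2.38 for *dnajc5ga* and -1.93 for *hspa14*. It was -1.36 for *dnajc15* and -1.18 for *dnaja3b*, partners of mitochondrial HSP70. The opposite sign was found for *dnajc22* at 2.62, for *hspa12b* at 1.56 and for *dnajc12*, a co-chaperone of aromatic amino acid hydroxylases in humans, at 1.24.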

How the results depend on the processing

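No member called for OF changed direction under the alternatives run, but medians close to 0 did. For left-out arrays the direction of called members was fixed in advance. Their OF and control signals did not overlap in the batch or batches of the call. The batch 1 median of the members turned to -0.04 without the second control fish and -0.02 without the first OF fish. The batch 1 median of the cytosolic co-chaperones turned from 0.19 to -0.04 without the second control fish. Over both batches the median of the ER list turned from -0.31 to 0.03 without the second OF fish of batch 2 and 0.01 without its second control fish, and that of the chaperonin list turned from -0.02 to 0.11 without that OF fish. With 2 fish a group, 1 array could decide a call. Each fit with an array left out has 1 fish in a group. The share of gene symbols called also moved with the array left out. The ranges of counts that follow were therefore not read as specific to the chaperones. Leaving out each array in turn gave 18 to 22 members called lower and 0 to 3 higher in batch 2, of which 5 to 9 were in the ER lumen, 2 to 2 in mitochondria and 7 to 9 in the cytosol. It gave 4 to 5 lower and 0 to 15 higher in batch 1, 1 to 8 lower and 0 to 1 higher over both batches, 14 to 25 lower and 3 to 9 higher for the difference between batches, and 28 to 37 higher and 0 to 0 lower for batch 2 against batch 1. The median change of the members ranged from -0.31 to -0.21 in batch 2, -0.04 to 0.31 in batch 1, -0.16 to -0.02 over both, -0.55 to -0.25 for the difference and 0.89 to 1.18 for batch. With the replicate block, although the numbers do not pair the fish, 6 members were called higher in batch 1 instead of 1 (6.47% of gene symbols). It gave 2 lower over both batches (0.49%) and 5 higher for the difference (8.82%). Quantile normalization gave 3 lower over both batches (0.626%), 2 higher in batch 1 (5.71%) and 5 higher for the difference (8.34%). It gave 2 higher for batch (3.83%) with a median of 0.34. Centring gave 14 higher for batch (10.5%) with a median of 0.65. Restricting the fit to clusters above 5 on at least 2 arrays left out dim members, among them the 28 that read above 5 on no array. It gave 0 lower over both batches, 1 lower in batch 1 and 1 higher for the difference. Without the restriction, 4 members had an unadjusted limma p under 0.05 over both batches. The medians of the brighter members that remained were 0.44 in batch 1, -0.71 in batch 2, -1.19 for the difference and 1.40 for batch. They describe a different set than the medians of all 82, and no share of gene symbols is given for this filter. A trended and robust prior gave 3 lower over both batches (0.652% of gene symbols) and 2 higher in batch 1 (5.66%). A single fit of the 4 groups gave 2 higher in batch 1 (6.35%). Under that single fit *hspb7* in batch 1 and *dnajb11*, *dnajc3a* and *hspa5* in batch 2 were no longer called. *dnajc3a* was not called with the replicate block either. The causes of these shifts were not tested. Apart from left-out arrays, 206 values of single members kept their call and 5 lost it. Much of this was fixed in advance. No called member has a second cluster, so averaging the clusters of a gene left the called changes as they were. The fit on 1 cluster per gene symbol, the replicate block, the prior and the shared spread alter the error of a change and not its size.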
